A study of Mus musculus with 4 samples.

Results

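Neutrophils store their antimicrobial proteins in granules that are filled in a fixed order as the cell matures in the bone marrow. Genes for primary (azurophil) granule proteins are transcribed in promyelocytes, genes for secondary (specific) granule proteins in myelocytes and metamyelocytes, and both sets are largely shut off in the mature cell, which carries the finished proteins and relies on surface receptors to reach inflamed tissue. In the mouse, an RNA sample with many reads of granule genes is therefore often taken to contain immature cells, whereas receptor genes such as Csf3r and Cxcr2 mark late stages. The 9 genes described here, of 53819 gene symbols in the deposited table, were chosen by name, to set genes of immature against genes of mature cells: the primary granule genes Mpo, Elane and Prtn3, the secondary granule genes Ngp, Camp, Ltf and Lcn2, and the surface genes Ly6g and Cd177. All 9 were found.

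The samples are labelled primary eosinophils of the colon from wild-type (WT) C57Bl/6 mice. Control mice drank water, and the others received 3% dextran sulfate sodium (DSS), which damages the lining of the colon; each group had 2 libraries of poly-A RNA. All 4 titles also carry the code D6, which the labels do not explain. The labels do not say how many mice stand behind a library, so p-values reflect only how far these libraries differ, and that spread may be technical.

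Each library held between 30985905 and 34126329 reads. Levels are given as CPM, read counts scaled to a common library total that is adjusted for composition. The labelled cell type was checked against its markers. The 9 eosinophil markers summed to 7.85 and 72.9 CPM in the water libraries and 94.3 and 352 CPM in the DSS libraries, and the eosinophil peroxidase gene Epx had 0 reads in water replicate 1 and in DSS replicate 1. The 9 epithelial markers summed to 8917 and 5932 CPM in water against 3505 and 8527 CPM with DSS, more than the eosinophil sum in every library. The water libraries also held RNA of prostate genes, which the label does not account for. Pbsn, the gene of the prostate secretory protein probasin, had 2786 and 1864 reads in water and none in either DSS library, and edgeR called it lower (adjusted p = 0.0334). Tgm4, a prostate transglutaminase gene, had 2407 and 2481 reads in water, 0 and 6 with DSS. In such bulk RNA, fewer cells of a type and less RNA per cell cannot be told apart.

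The gene positions, from GENCODE vM21 on GRCm38, form 2 neighbourhoods. Prtn3 (chromosome 10, 79874476 to 79883174, plus strand) and Elane (79886247 to 79888215, plus strand) lie 3072 bases apart with no annotated gene between them. Camp (chromosome 9, 109847379 to 109849617, minus strand), Ngp (110419747 to 110423012, plus strand) and Ltf (111019271 to 111042767, plus strand) follow each other on chromosome 9 at distances of 570 and 596 kb, with 22 and 29 other annotated genes between them. Mpo is on chromosome 11 (87793581 to 87804413, plus strand), Lcn2 on chromosome 2 (32384633 to 32388252, minus strand), Ly6g on chromosome 15 (75155240 to 75159126, plus strand) and Cd177 on chromosome 7 (24743983 to 24760311, minus strand). All 9 are annotated as protein-coding.

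Sequence shared with other genes was rare: no 100-base stretch of Ngp, Ltf, Camp, Lcn2, Mpo, Elane, Prtn3 or Ly6g occurred in a transcript of another gene, and 1.79% of those of Cd177 did. The annotation of Prtn3 overlaps Plppr3 on the opposite strand, and the protocol does not say whether strand was kept. Plppr3 reads numbered 540 and 542 in water, 616 and 668 with DSS, while Prtn3 went from 7 to 358. Mpo overlaps the antisense gene Gm11505, which had 0 reads in all 4 libraries.

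The promoter windows are shown because the primary granule genes shared letters there that the secondary granule genes lacked. Windows run from 250 bases before to 50 bases after the RefSeq start (GRCm38.p6), and all 9 genes had one. Searched on both strands were GAGGAAGT, the core bound by PU.1, a factor of myeloid lineages; CAACGG, a core bound by MYB, a factor of immature blood cells; and TTNNGNAA, a loose form of the sequence bound by C/EBP factors, one of which (C/EBP epsilon) is needed for secondary granule genes in mice. Matches are in capitals. No match of one motif overlapped a match of another in the windows printed.
Mpo (chr11:87793534-87793833, plus strand): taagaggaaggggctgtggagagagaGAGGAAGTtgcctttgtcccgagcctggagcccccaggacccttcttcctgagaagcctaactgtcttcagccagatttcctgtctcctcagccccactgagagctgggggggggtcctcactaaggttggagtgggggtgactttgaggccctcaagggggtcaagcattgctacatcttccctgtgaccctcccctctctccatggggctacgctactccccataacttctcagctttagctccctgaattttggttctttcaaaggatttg
Elane (chr10:79886062-79886361, plus strand): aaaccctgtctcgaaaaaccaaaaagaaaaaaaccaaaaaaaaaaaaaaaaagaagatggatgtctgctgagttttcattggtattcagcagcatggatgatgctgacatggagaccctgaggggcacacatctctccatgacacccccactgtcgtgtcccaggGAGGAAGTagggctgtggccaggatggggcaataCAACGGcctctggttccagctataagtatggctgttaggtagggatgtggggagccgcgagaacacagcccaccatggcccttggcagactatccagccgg
Prtn3 (chr10:79879417-79879716, plus strand): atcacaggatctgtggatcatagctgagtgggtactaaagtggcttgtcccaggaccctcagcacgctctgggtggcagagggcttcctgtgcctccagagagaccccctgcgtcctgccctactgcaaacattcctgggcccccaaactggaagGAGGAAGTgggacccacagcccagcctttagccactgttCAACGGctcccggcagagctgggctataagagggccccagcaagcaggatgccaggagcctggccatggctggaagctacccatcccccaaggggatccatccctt
Ngp (chr9:110419558-110419857, plus strand): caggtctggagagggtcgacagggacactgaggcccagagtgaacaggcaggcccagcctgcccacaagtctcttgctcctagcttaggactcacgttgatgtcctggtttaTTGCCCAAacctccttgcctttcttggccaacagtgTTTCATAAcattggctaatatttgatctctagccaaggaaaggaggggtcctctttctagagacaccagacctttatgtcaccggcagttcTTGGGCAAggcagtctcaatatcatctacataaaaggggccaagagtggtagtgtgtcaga
Ltf (chr9:111019042-111019341, plus strand): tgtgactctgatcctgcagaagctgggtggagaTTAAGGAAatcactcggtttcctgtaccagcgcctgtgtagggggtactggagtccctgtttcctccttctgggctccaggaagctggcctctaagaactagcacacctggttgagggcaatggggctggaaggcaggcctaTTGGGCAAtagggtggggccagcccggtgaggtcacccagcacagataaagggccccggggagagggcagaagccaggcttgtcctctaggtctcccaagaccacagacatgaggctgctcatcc

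The PU.1 core was present in all 3 primary granule genes and in Ly6g, against 3.20% of the 32851 windows in the RefSeq table, and in no window of the secondary granule genes or Cd177. In Elane it began 85 bases before the start and in Prtn3 95 bases before it, each followed by the MYB core, at 51 and 56 bases before the start. The MYB core was in no other window of the 9 genes and in 5.12% of all windows. In Mpo the PU.1 core lay 224 bases before the start. The C/EBP letters occurred in Ngp, with 3 matches, in Ltf, with 2, and in Lcn2, Cd177 and Ly6g, and they are common, with a match in 40.7% of all windows. Camp had none of these motifs in its window. A match describes letters and not a bound site. The motifs were chosen after these sequences had been read, so the shares of all windows are a description and not independent support.

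The level of the primary granule genes stood apart in 1 library. Mpo, Elane and Prtn3 were near 0 in both water libraries and in DSS replicate 1, and each had its highest level in DSS replicate 2, as 20.5% of tested genes did. Mpo encodes myeloperoxidase, which makes hypochlorous acid from hydrogen peroxide. It had 0 and 4 reads in water replicates 1 and 2, and 0 and 236 reads in DSS replicates 1 and 2, or 0 and 0.117 CPM against 0 and 6.72 CPM. The groups overlapped, and DSS replicate 2 was at least 60.2-fold above DSS replicate 1 when the latter is set to a floor of 3 reads.

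Elane encodes neutrophil elastase, a serine protease of the same granules. Elane levels were 0.711 and 0.234 CPM in water (24 and 8 reads) against 0.521 and 4.84 CPM with DSS (14 and 170 reads). DSS replicate 1 lay between the water libraries, so the groups overlapped. DSS over water gave a log2 fold change of 2.50 (SE 1.20). It was not called by the quasi-likelihood test of edgeR, adjusted over 18788 tested genes (adjusted p = 0.666). Without DSS replicate 2 the log2 fold change was 0.14 (SE 1.87).

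Prtn3 encodes proteinase 3, the serine protease made from the gene next to Elane. Its levels were 0.593 and 0.204 CPM in water (20 and 7 reads) against 1.19 and 10.2 CPM with DSS (32 and 358 reads), so the groups did not overlap, and DSS replicate 1 was the nearer to water. Its log2 fold change was 3.83 (SE 1.17; edgeR adjusted p = 0.505). DESeq2 called it (adjusted p = 0.00755), and that call ended when DSS replicate 2 was left out (1.60 on the log2 scale, adjusted p = 0.958) or water replicate 2 was (3.26, adjusted p = 0.0849). A fit without a library has 1 library left in that group, so its p-values rest on the spread of the other group. Within the DSS pair, Elane was 9.29-fold and Prtn3 8.56-fold higher in replicate 2, with counting intervals of 5.38 to 17.3 and 5.95 to 12.7.

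**Figure D1:**
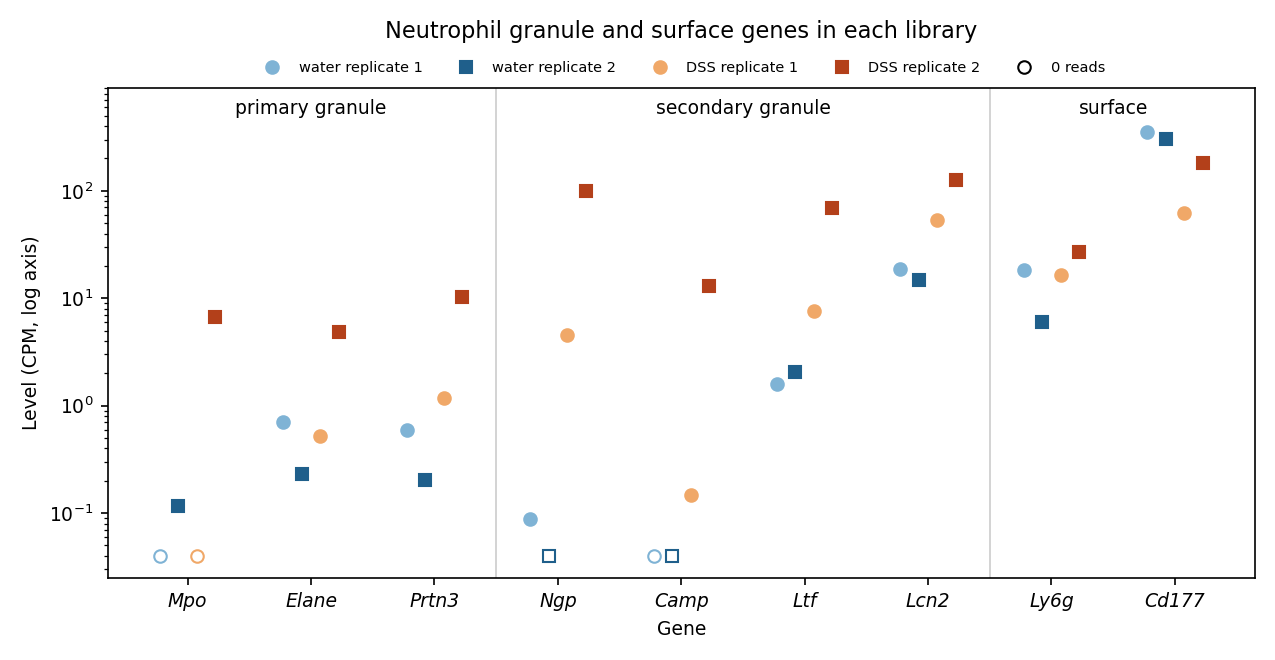
Level of each of the 9 genes in each library, in CPM on a log axis, with 1 symbol per library and open symbols for 0 reads. DSS replicate 2 is the highest library for 8 of the 9 genes, and for Cd177 both water libraries (352 and 304 CPM) lie above both DSS libraries.

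Ctsg and Ms4a3, other genes of the promyelocyte stage, come from a list that included these 3. Both were also highest in DSS replicate 2, as 20.5% of tested genes were. Ctsg, the gene of the granule protease cathepsin G, had 0 reads in both water libraries and 3 and 91 in DSS replicates 1 and 2. Ms4a3, a marker of granulocyte and monocyte progenitors in mice, had reads in DSS replicate 2 alone, namely 42, and it was picked out after its values were seen. Serpinb1a, an inhibitor of these proteases on the same list, was also picked out afterwards. It had 195 and 122 CPM in water against 84.0 and 206 CPM with DSS, with a log2 fold change of -0.13 (SE 0.50). Unlike the other genes on the list, it was well above 0 in water. Of the 6 genes on the list, 3 passed the count filter of the fit, and edgeR called none of them. At an unadjusted p under 0.05 edgeR had 1 higher, against 5.06% of tested genes. DESeq2 called 2 of 6 higher, Prtn3 and Ctsg, against 1.65% of the genes with a DESeq2 adjusted p.

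The secondary granule genes were higher in both DSS libraries than in both water libraries, for all 4 of 4. The same held for 20.8% of the 18788 tested genes. Ngp, neutrophilic granule protein, a cystatin-related protein of mouse secondary granules, was almost absent from the water libraries, with 3 and 0 reads. It had 123 and 3512 reads in DSS, so that its levels were 0.0889 and 0 CPM against 4.58 and 99.9 CPM. Over summed reads DSS exceeded water 1328-fold, with a counting interval of 454 to 6445, and 96.6% of the DSS reads were in replicate 2. The fitted log2 fold change was 10.09 (SE 1.98; edgeR adjusted p = 0.401; DESeq2 adjusted p = 0.00424). It was 6.57 without DSS replicate 2 and 11.02 without DSS replicate 1. It lay at 13.70 and 9.15 when water replicate 1 or 2 was left out. The DESeq2 call ended without water replicate 1 (adjusted p = 0.0798).

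Camp encodes cathelicidin, the precursor of the antimicrobial peptide CRAMP. It had 0 reads in both water libraries and 4 and 458 reads in DSS replicates 1 and 2, or 0.149 and 13.0 CPM. Against a floor of 3 reads per library in water, mean CPM in DSS was at least 74.7-fold higher, and nearly all of it came from replicate 2, which was 87.6-fold above replicate 1 (counting interval 34.0 to 323). Camp and Mpo did not pass the count filter, which asks for about 10 reads in 2 libraries, and so have no edgeR value with that filter and all 4 libraries. DESeq2 called neither (adjusted p = 0.211 and 0.858). Its log2 fold changes were 10.23 for Camp and 5.81 for Mpo. Without DSS replicate 1, which leaves 1 DSS library, they were 11.23 and 6.83.

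Ltf encodes lactoferrin, which binds iron. Its levels were 1.60 and 2.07 CPM in water against 7.59 and 69.4 CPM with DSS, so the groups did not overlap and the water libraries were close to each other. Fitted over all libraries, the log2 fold change was 4.39 (SE 1.03; edgeR adjusted p = 0.428; DESeq2 adjusted p = 1.41e-06). Without DSS replicate 1 it was 5.22 with edgeR. Without DSS replicate 2 it was 2.04, and the DESeq2 call ended (adjusted p = 0.265).

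Lcn2 encodes lipocalin 2, which takes up bacterial iron carriers and is made by inflamed epithelium as well as by neutrophils. It had 18.8 and 14.8 CPM in water against 53.1 and 125 CPM with DSS. Unlike the other granule genes it was well above 0 in water, and it differed less within the DSS pair than they did, by 2.36-fold (counting interval 2.22 to 2.50). The log2 fold change was 2.41 (SE 0.46; edgeR adjusted p = 0.367; DESeq2 adjusted p = 6.22e-05), and it was 1.66 without DSS replicate 2. In the 4 DESeq2 fits that left out a library it lay between 1.675 and 2.90. As a share of the summed CPM of the 9 epithelial markers, Lcn2 stood at 0.210% and 0.250% in water against 1.51% and 1.47% with DSS, so on that scale the DSS libraries were alike.

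edgeR called 0 of the 7 tested members. Across all tested genes, edgeR called 0% higher and 0.016% lower in DSS. At an unadjusted p under 0.05 it had Ngp, Ltf, Lcn2 and Prtn3 higher, against 5.06% of tested genes, and Cd177 lower, against 3.39%. The log2 fold change was above 0 for 6 of the 7, against 49.2% of tested genes. limma-voom also called none, with 1 member higher and 1 lower at an unadjusted p under 0.05. DESeq2 called 4 of the 9 members higher (Ngp, Ltf, Lcn2 and Prtn3), against 1.65% of the genes with a DESeq2 adjusted p, and none lower, against 0.895%. A member passes the count filter through the libraries where it is high, so these counts are given as a description.

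**Figure D2:**
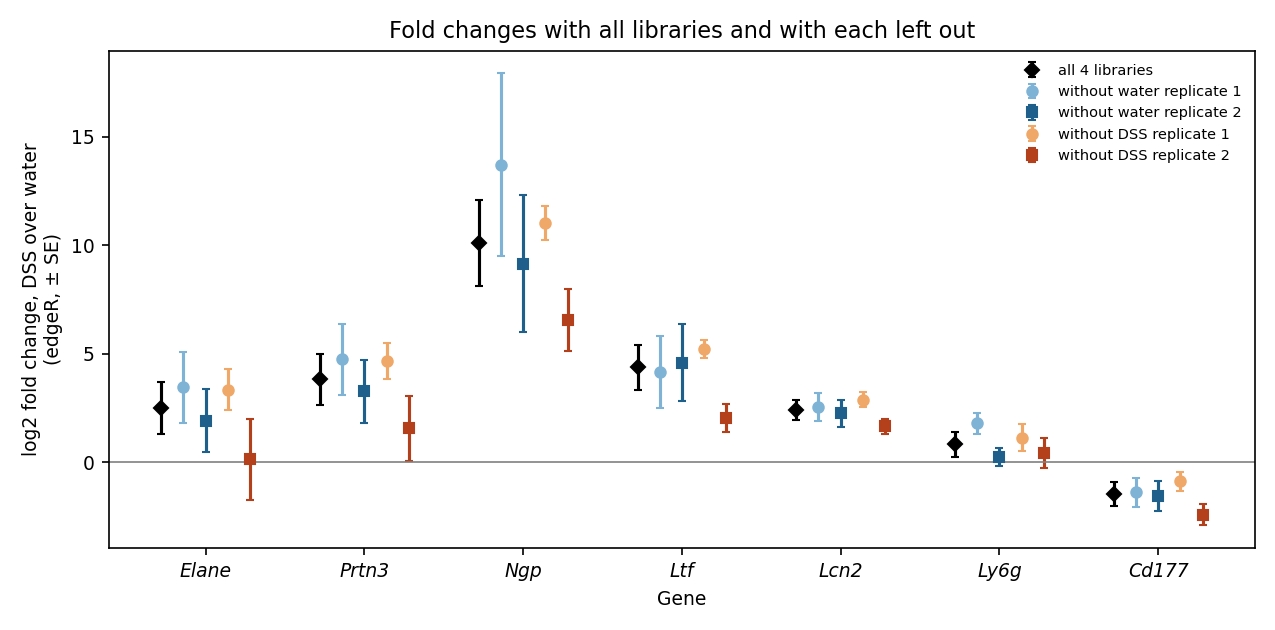
Fitted log2 fold change of DSS over water for the 7 tested members (edgeR, bars ± SE), with all 4 libraries and with each library left out; in the latter the lone library of a group is assumed to vary like the others. Without DSS replicate 2 the value of Elane is 0.14 and that of Prtn3 1.57, whereas Lcn2 stays between 1.66 and 2.89 in the fits shown.

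Of the surface genes, Cd177 went the other way from the granule genes, and Ly6g went their way less strongly. Ly6g encodes the small membrane-anchored protein that antibodies use to mark mouse neutrophils. Its levels were 18.3 and 6.04 CPM in water against 16.4 and 26.9 CPM with DSS, and water replicate 1 lay above DSS replicate 1, so the groups overlapped. Its log2 fold change was 0.83 (SE 0.56), and neither edgeR (adjusted p = 0.768) nor DESeq2 (adjusted p = 0.762) called it. Without water replicate 1 it was 1.81 (SE 0.48), and without water replicate 2 it was 0.25. As a share of the summed CPM of the 9 epithelial markers, Ly6g stood at 0.206% and 0.102% in water against 0.469% and 0.316% with DSS. On that scale the groups did not overlap, and DSS replicate 1 was the higher DSS library. In water replicate 1, Ly6g had 619 reads while Ngp had 3, Camp and Mpo had 0 and the chemokine receptor gene Cxcr2 had 0.

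Cd177 encodes a membrane-anchored glycoprotein that in human neutrophils holds proteinase 3 at the cell surface. Its levels were 352 and 304 CPM in water against 61.9 and 180 CPM with DSS, so both water libraries lay above both DSS libraries, the reverse of every granule gene with separated groups. Groups separated in that direction in 18.7% of tested genes. The log2 fold change was -1.44 (SE 0.54; edgeR adjusted p = 0.572; DESeq2 adjusted p = 0.0817). Without DSS replicate 2 it was -2.40 with edgeR (adjusted p = 0.237) and DESeq2 called it (-2.39, adjusted p = 1.97e-05), and without DSS replicate 1 it was -0.87.

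The epithelial markers are set beside Cd177. Of the 9, all were lower in DSS replicate 1 than in DSS replicate 2, against 9728 of the 18788 tested genes. Their median log2 fold change was -0.40 and 9 of 9 lay below 0, against 9548 of the tested genes. None was called by edgeR or by DESeq2, and with edgeR 1 was lower at an unadjusted p under 0.05, against 3.39%. Over the summed CPM of these markers, Cd177 stood at 3.95% and 5.12% in water and at 1.77% and 2.11% in DSS, which are closer within the DSS pair than the CPM values and still lower than in water. The prostate genes Pbsn and Tgm4 had separated groups and lower levels with DSS, the direction that Cd177 has. The part of epithelial and of prostate RNA in the Cd177 result was not tested.

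The genes nearest to Cd177 in profile were looked for among 11387 genes with at least 10 CPM in a library, by the distance between values of log2(CPM + 0.5) centred on each gene's mean over the 4 libraries. The nearest was Spink4, a secretory gene of intestinal goblet cells, at a distance of 0.05, with 227 and 192 CPM in water against 37.9 and 115 CPM with DSS. Ugt2b35, of a glucuronosyltransferase family, and Atp2c2, of a calcium and manganese pump family, followed at 0.179 and 0.206. For Prtn3 the nearest were the immunoglobulin segment Ighv2-6 (0.515), the fatty acid binding protein gene Fabp4 (0.967) and Lcn2 (1.03). Prtn3 lay between 0.204 and 1.19 CPM in both water libraries and DSS replicate 1. The added 0.5 therefore flattens its profile more than those of genes at higher levels. Elane and Mpo, which reached at most 4.84 and 6.72 CPM, fell under the limit of 10 CPM and were not compared. For Lcn2 the nearest were Ighv2-6 (0.622), Fabp4 (0.659) and Timp1 (0.659), which encodes an inhibitor of matrix proteases. With 4 libraries these distances describe likeness over 4 points only.

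**Figure D3:**
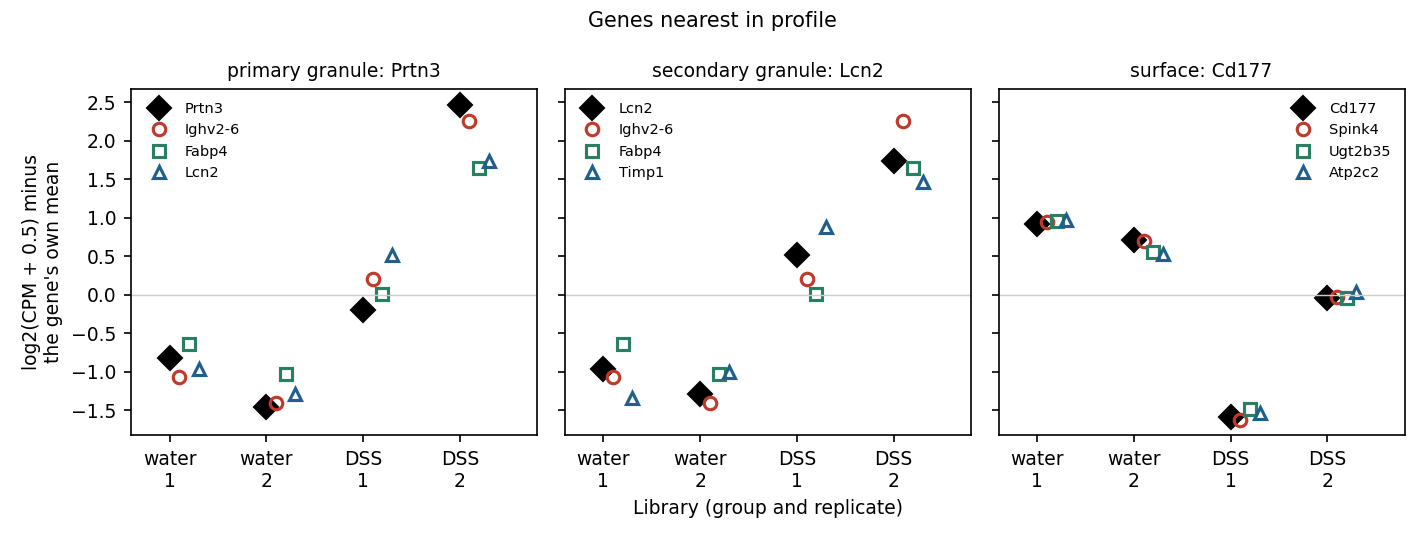
Profiles of Prtn3, Lcn2 and Cd177 (black diamonds) with the 3 genes nearest to each (open symbols), as log2(CPM + 0.5) minus the gene's own mean, by library. The symbols of Spink4, at a distance of 0.05, follow those of Cd177 in all 4 libraries. None of the genes compared, which had at least 10 CPM in a library, came closer than 0.515 to Prtn3 or 0.622 to Lcn2.

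Per kilobase of exon, which allows a rough comparison between genes, the order of levels differed between the groups. The length is the union of all annotated exons, which can exceed that of a single transcript. It was 2.623 kb from 6 transcripts for Lcn2 and 1.222 kb from 1 for Ngp, so the order depends on this measure. In water Cd177 was highest, at 115 ± 12.0 CPM per kilobase (SD, n = 2), followed by Ly6g at 12.9 ± 9.23 and Lcn2 at 6.40 ± 1.06, which differed by less than the spread of Ly6g. Ltf (0.532 ± 0.0969), Elane (0.480 ± 0.343) and Prtn3 (0.230 ± 0.159) formed a lower group in which neighbours did not differ beyond their spread. Ngp and Mpo stood at 0.0364 and 0.0171, and Camp at 0. In DSS the order by mean was Ngp (42.8 ± 55.2), Cd177 (42.6 ± 29.4), Lcn2 (34.0 ± 19.4), Ly6g (23.0 ± 7.88), Ltf (11.2 ± 12.7), Camp (8.70 ± 12.0), Prtn3 (3.28 ± 3.67), Elane (2.72 ± 3.10) and Mpo (0.981 ± 1.39). No neighbours in this DSS order differed by more than the larger of their SDs. In DSS replicate 2 alone Ngp was highest at 81.8 CPM per kilobase and the primary granule genes were the lowest, at 1.96 to 5.88.

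By class, surface genes, mostly Cd177, held nearly all reads of the 9 genes in water and a minority in DSS replicate 2. Their share was 94.5% and 94.7% in water, 53.9% in DSS replicate 1 and 38.6% in DSS replicate 2. Cd177 held 11881 of the 12500 surface reads in water replicate 1 and 10404 of the 10611 in water replicate 2. This share therefore mostly follows Cd177, in which the part of epithelial and of prostate RNA was not tested. The secondary granule share was 5.21% and 5.17% in water against 44.9% and 57.3% with DSS, and the primary granule share was 0.332% and 0.170% in water against 1.18% and 4.06% with DSS. The exact 95% binomial intervals of the primary share were 0.863% to 1.57% in DSS replicate 1 and 3.78% to 4.35% in DSS replicate 2, and cover counting error only. Exact permutation tests of 2 libraries against 2 cannot go below a two-sided p of 0.333, so these shares carry no test.

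**Figure D4:**
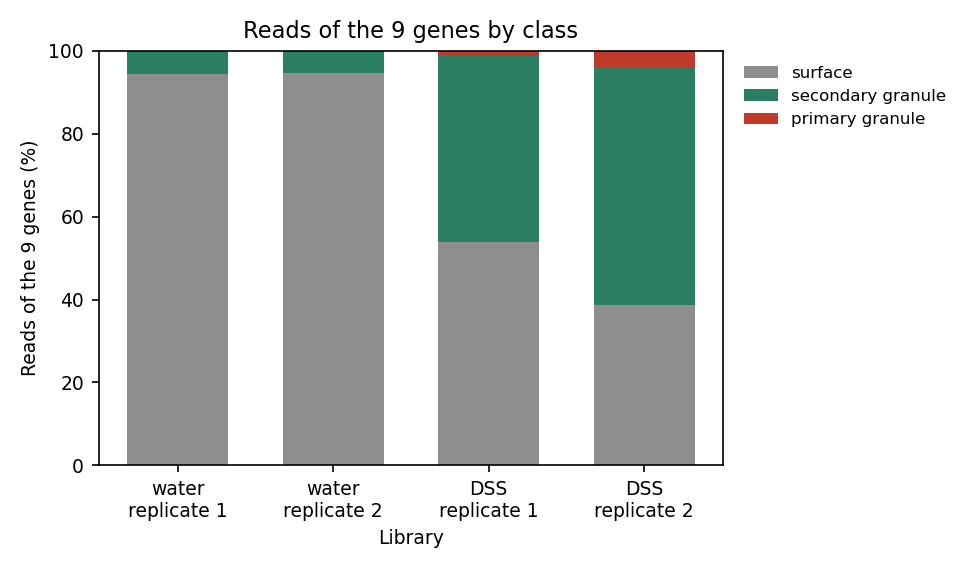
Reads of the 9 genes in each library, split by class, as percent of all reads of the 9 genes. The surface class, mostly Cd177, takes 94.5% and 94.7% in the water libraries and 38.6% in DSS replicate 2, where the primary granule class takes 4.06%.

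Among granule genes alone, primary granule genes made up a small part in every library. They held 5.99% of primary and secondary granule reads in water replicate 1 (interval 4.39% to 7.96%), 3.18% in water replicate 2, 2.55% in DSS replicate 1 and 6.61% in DSS replicate 2 (interval 6.16% to 7.07%). The interval of DSS replicate 1 was 1.87% to 3.39%, so the DSS libraries differed by more than counting error. Lcn2 weighed on these shares. Without it the primary part was 43.6% and 21.1% in water (intervals 33.7% to 53.8% and 13.2% to 31.0%) and 12.2% and 10.7% in DSS, and the intervals of the DSS libraries (9.07% to 15.9% and 9.95% to 11.4%) overlapped.

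Within the DSS pair, granule genes and the receptor genes Csf3r and Cxcr2 differed in opposite directions, a contrast of single libraries with no replicate check. Granule genes were higher in replicate 2, by 21.8-fold for Ngp (counting interval 18.2 to 26.4) and 9.14-fold for Ltf (7.92 to 10.6), against 1.64-fold for Ly6g (1.46 to 1.84). All 9 members were higher in replicate 2 than in replicate 1, 8 of them by at least 2-fold (12.7% of tested genes) and 3 by at least 10-fold, counting Mpo (2.93%). Csf3r, which encodes the G-CSF receptor, had 19.5 and 51.7 CPM in water against 417 and 109 CPM in DSS replicates 1 and 2. Cxcr2, the receptor for neutrophil-attracting chemokines, had 0 and 1.40 CPM in water against 36.5 and 16.8 CPM with DSS. Both genes were thus above their water levels in both DSS libraries and higher in DSS replicate 1.

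**Figure D5:**
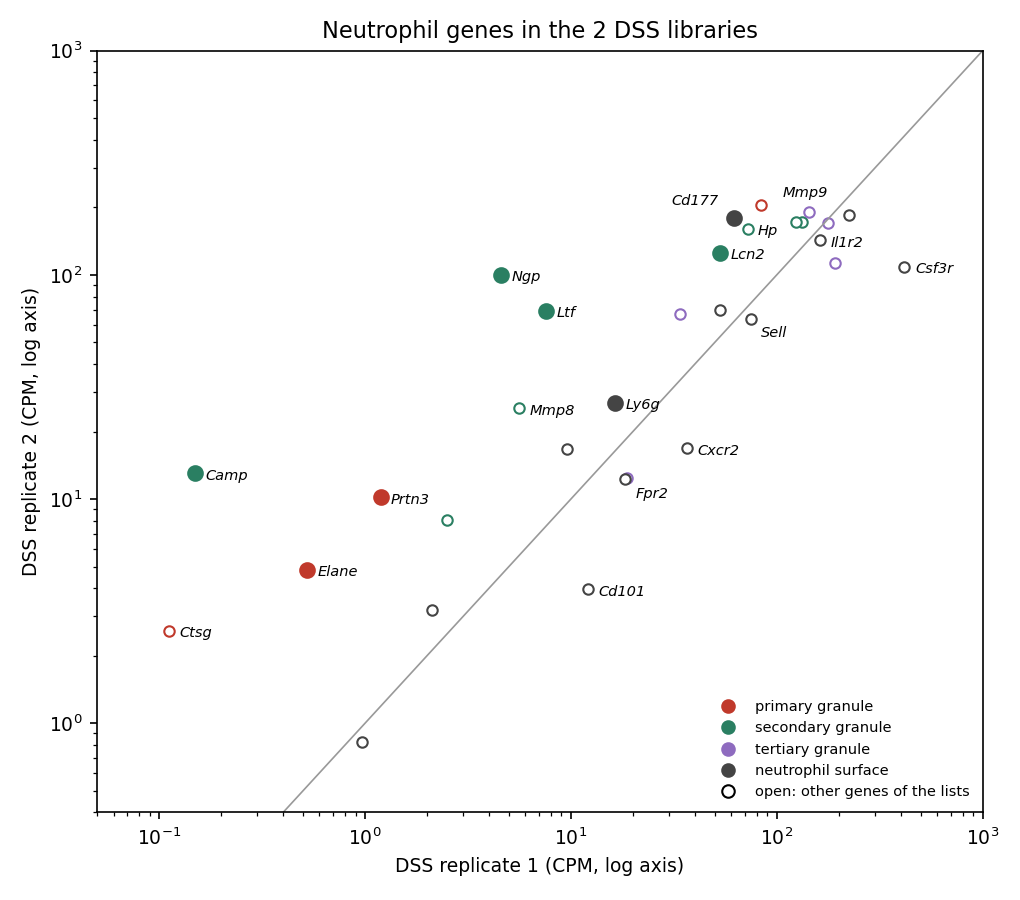
Level in DSS replicate 1 against DSS replicate 2 (CPM, log axes) for genes of the granule and surface lists, filled for the 9 genes and open for others; the line marks equal levels, and genes with 0 reads in either library, Mpo among them, are not drawn. Ngp, Camp, Ltf, Elane and Prtn3 lie well above the line, while Csf3r (417 and 109 CPM), Cxcr2 and Cd101 lie below it.

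Of the 11 other genes on the neutrophil surface list, 11 had a log2 fold change above 0 (median 2.89, against -0.01 over all tested genes), and in 8 of them DSS replicate 1 was higher than DSS replicate 2. Over all tested genes, 9009 were higher in DSS replicate 1 and 9728 in replicate 2. edgeR called none of the 11 and DESeq2 called 6 higher, against 1.65% of all genes with an adjusted p, Csf3r among them (adjusted p = 0.000311). At an unadjusted p under 0.05 edgeR had 10 of the 11 higher, against 5.06%. Their summed level was 81.7 and 248 CPM in water against 1013 and 625 CPM with DSS.

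The 5 other secondary granule genes of the list lay above 0 (median 0.74 on the log2 scale), as 49.2% of tested genes did. All were higher in DSS replicate 2 than in replicate 1, against 9728 of the 18788 tested genes. edgeR called none and DESeq2 called 1 higher, Hp, against 1.65% of the genes with an adjusted p. Mmp8, neutrophil collagenase, Hp, haptoglobin, and the oxidase genes Cybb and Cyba were singled out after their values were seen. Mmp8 had 0 and 0.613 CPM in water against 5.62 and 25.4 CPM with DSS. Hp had 8.48 and 3.65 CPM in water against 72.3 and 161 CPM with DSS (fitted difference 4.26 on the log2 scale, SE 0.60; edgeR adjusted p = 0.281; DESeq2 adjusted p = 4.46e-13). Cybb and Cyba, whose products macrophages also use, had log2 fold changes of 0.65 and 0.38.

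The 5 genes listed for tertiary granules, a class whose transcripts appear later in maturation, split between the DSS libraries. Mmp9 and Mmp25 were higher in replicate 2, as the 9 members were. Slpi, Arg2 and Ptafr (178 and 170 CPM in DSS replicates 1 and 2), the last named after its values were seen, were higher in replicate 1. All 5 had separated groups, higher with DSS, against 20.8% of tested genes. Their median log2 fold change was 2.41, against -0.01 over all tested genes. Mmp9, gelatinase B, had 1.10 and 34.3 CPM in water against 144 and 191 CPM with DSS, and Mmp25, a membrane-bound matrix protease, had 1.54 and 18.0 CPM against 33.8 and 66.7 CPM. Slpi, a protease inhibitor, had 34.2 and 23.3 CPM against 192 and 113 CPM, and Arg2, a mitochondrial arginase, 2.49 and 2.25 CPM against 18.7 and 12.4 CPM. edgeR called 0 of the 5, 4 were higher at an unadjusted p under 0.05, against 5.06% of tested genes, and DESeq2 called 2 higher, Slpi and Arg2, against 1.65%.

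Of the 9 listed genes of neutrophil cytosolic proteins, 8 were higher in both DSS libraries than in both water libraries, against 20.8% of tested genes. The exception, Stfa2, a stefin named after its values were seen, had 34 reads in DSS replicate 2 and 0 in the other libraries, and it did not pass the count filter. S100a8, a calprotectin subunit, had 0.741 and 5.99 CPM in water against 182 and 314 CPM with DSS. S100a9, the other subunit, had 0.652 and 13.7 CPM in water against 367 and 479 CPM with DSS. Retnlg, a resistin-like protein, had 0.0593 and 72.2 CPM in water against 114 and 493 CPM with DSS, and Stfa2l1, also a stefin, had 0 and 0.321 CPM against 5.36 and 4.33 CPM. The median log2 fold change of the 8 tested genes was 4.01, against -0.01 over all tested genes. edgeR called 0, 6 were higher at an unadjusted p under 0.05, against 5.06% of tested genes, and DESeq2 called 5 of the 9 higher, against 1.65%.

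The factors that direct granule formation gave no common direction. Cebpe, which encodes C/EBP epsilon, had 0 and 1.31 CPM in water against 2.61 and 7.17 CPM with DSS (fitted difference 2.89 on the log2 scale, SE 1.52; edgeR adjusted p = 0.693). Cebpa had 55.5 and 84.1 CPM in water against 41.0 and 67.9 CPM with DSS, Cebpd 157 and 155 CPM against 115 and 149 CPM, and Cebpb, the family member used in emergency granulopoiesis, 91.5 and 258 CPM against 374 and 384 CPM. Fcnb, a ficolin of immature neutrophils in mice, picked out after its values were seen, had 0 reads in water and 2 and 73 in DSS replicates 1 and 2. Of the 9 genes on the list 8 were tested, and 6 lay above 0, against 49.2% of tested genes. edgeR called none, with 1 higher at an unadjusted p under 0.05, against 5.06%. DESeq2 called 2 higher, Fcnb and Csf3, against 1.65% of the genes with an adjusted p. These 2 encode a ficolin and a cytokine, and no transcription factor gene on the list was called. Csf3 encodes G-CSF, the cytokine that drives neutrophil production; also picked out after its values were seen, its reads numbered 6 and 10 in water, 457 and 435 with DSS.

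Cell cycle genes, which dividing promyelocytes and myelocytes share with every other dividing cell, lay mostly below 0. Of 10, 8 did so, against 9548 of the 18788 tested genes, and the median log2 fold change was -0.53, against -0.01. edgeR called none, with 3 lower at an unadjusted p under 0.05, against 3.39% of tested genes. DESeq2 called none, against 0.895% of genes called lower. Mki67 had 215 and 182 CPM in water against 171 and 125 CPM with DSS, and Top2a had 85.8 and 99.2 CPM against 65.9 and 63.3 CPM. Cdk1 and Ccnb1 had log2 fold changes of -0.79 and -0.87.

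Markers of other cells were set beside the granule genes. Eosinophil markers had their highest sum in DSS replicate 2, at 352 CPM, of which Alox15 alone held 225 CPM. Of the 9, 7 were higher in DSS replicate 2 than in replicate 1. Prg2 (11.9 and 8.54 CPM in DSS replicates 1 and 2) and Ear2 (4.06 and 0.683 CPM) were higher in replicate 1. Alox15 and Ear2 were named after their values were seen. Mast cell markers were also highest in DSS replicate 2, at 38.7 and 98.3 CPM in water against 106 and 257 CPM with DSS. So were basophil markers, at 6.58 and 14.3 CPM against 15.4 and 33.9 CPM. Erythroid markers were highest in DSS replicate 1, at 26.9 and 20.9 CPM in water against 563 and 201 CPM with DSS. B and plasma cell markers were too, at 6632 and 5709 CPM against 34893 and 7183 CPM, and Jchain alone held 34138 of the 34893 CPM. T cell markers stood at 23.0 and 60.1 CPM against 105 and 55.6 CPM, also highest in DSS replicate 1. Stromal markers, at 2068 and 4247 CPM against 3449 and 7033 CPM, were highest in DSS replicate 2, as the granule genes were. Monocyte and macrophage markers were highest in water replicate 2, at 1153 and 3037 CPM against 1349 and 1538 CPM. The part of these cells in the levels of the 9 genes was not tested.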

How the data were processed

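Poly-A RNA was sequenced from 4 libraries. The authors deposited whole-number read counts per gene, unnormalized, under 53819 symbols. Per the submitters' processing notes, the tools were DESeq2, HTSeq, featureCounts, HISAT2 and STAR and the build GRCm38 (mm10); which tool made the table, and with which annotation, is not stated. Between 70.5% and 73.2% of counts from 1 to 10 were even in each library. If both mates of a read pair were counted, counting intervals are too narrow and floors (3 reads, 95% confidence) too low; this was not tested.

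The low-count filter was filterByExpr in edgeR 4.0.16 (minimum count 10, minimum total 15), which kept 18788 genes with 99.4% of counts, scaled by TMM and tested with glmQLFit (robust) and glmQLFTest under R 4.3.3, with group as the only term. SEs are the log2 fold change over the square root of the F statistic. P-values were adjusted by Benjamini-Hochberg over all tested genes and called under 0.05. CPM use TMM-adjusted totals; values per kilobase use the union of exons in GENCODE vM21. Alternatives were DESeq2 1.42.0, limma-voom (limma 3.58.1), other scalings and filters, replicate blocks and each library left out. The fits were tested on simulated data.

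The 9 members and the lists were chosen with earlier results of these data known, and the motifs after the promoter sequences had been read, so neither is independent support. The naming rule took all members, the called genes of each list or else its first 4, and the 3 genes nearest in profile to the most abundant member of each class; exceptions are named. P-values adjusted over a list alone are not given for that reason.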

Additional observations from a re-analysis of the deposited data

How the results depend on the processing

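Across all genes edgeR with all 4 libraries called 0 genes higher and 3 lower in DSS; the counts were 710 and 341 with no low-count filter, 323 and 175 with the DESeq2 Wald test, and 0 lower with limma-voom. Leaving out a library gave 0 to 123 higher and 3 to 73 lower with edgeR (the upper ends without water replicate 2; 3 and 5 higher without DSS replicates 1 and 2). With DESeq2, an alternative chosen after seeing the data, it gave 135 and 31 without water replicate 1, 636 and 192 without water replicate 2, 81 and 92 without DSS replicate 1 and 364 and 212 without DSS replicate 2. The causes were not tested. With a replicate block edgeR called 0 higher and 0 lower. Replicate numbers are not said to pair libraries, and differences between replicates 1 and 2 correlated at -0.142 between the groups over 18788 genes; crossed numbers, also tried after seeing the data, gave 29 and 15.

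For the members, all 7 tested log2 fold changes kept their direction in every alternative in which they could be fitted. Ranges were 6.57 to 13.70 for Ngp, 2.04 to 5.24 for Ltf, 1.66 to 2.90 for Lcn2, 1.57 to 4.79 for Prtn3, 0.14 to 3.51 for Elane, 0.25 to 1.83 for Ly6g and -2.40 to -0.87 for Cd177. With no filter edgeR called Ngp, Ltf, Lcn2, Prtn3, Camp and Mpo higher and Cd177 lower (adjusted p = 0.0412 for Cd177), and with the crossed block Ngp alone. The DESeq2 value of Mpo was 5.81 with all libraries and -3.08 (no adjusted p) without DSS replicate 2, which leaves 4 reads in all.

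The primary share of granule reads moved with the scale: per kilobase of exon it was 12.2% and 5.86% in water and 4.41% and 7.11% in DSS, and without Lcn2 43.6%, 21.1%, 12.2% and 10.7%. Depth limits the primary granule genes in water, where Mpo, Elane and Prtn3 together had 44 and 19 reads.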
